A study of Mus musculus with 9 samples.

Results

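The mitochondrial ribosomal proteins were taken as every gene in the deposited expression table whose name begins with Mrpl or Mrps followed by a number, leaving out names that end in -ps with a number. This gave 78 of the 15228 genes listed, 49 named for the large subunit and 29 named for the small subunit, and 1 name (Mrpl23-ps1) was left out. All 78 passed the filter on low values, a mean of at least 0.5 RPKM (reads scaled by exon length and library size). The study asked what the zinc chelator TPEN changes in retinal ganglion cells (RGCs) after optic nerve crush (ONC), an injury of their axons. It used wild-type C57BL/6J mice of both sexes, 6 to 8 weeks old. Ctrl came from intact retinas, ONC from retinas 3 d after crush with PBS injected into the eye, and TPEN from retinas 3 d after crush with 3 μL of TPEN at 100 μM injected into the eye right after the crush. Each group had 3 libraries of cells sorted by surface markers as RGCs, with 19946993 to 23109754 reads per library. Separate mice behind the 3 libraries are not stated in the sources used here, so p-values measure the spread between these libraries, which may be technical.

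The label of the cells was checked here against RNA of marker genes. The authors also stained sorted cells for the RGC marker protein RBPMS, and the outcome is not given in the text used here. Of 10 RGC markers, 8 were listed and 5 passed the filter, Nefl and Isl1 among them. Rbpms, Pou4f1 and Slc17a6, which define RGCs, were below the filter in these libraries. Summed RPKM of rod markers was 16800 to 19900 and that of RGC markers 265 to 365. The name RGCs is thus used below only for the sort. In such bulk samples, fewer cells of a type and less RNA per cell cannot be told apart.

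Mitochondria carry their own ribosome, which makes the few proteins encoded by mitochondrial DNA, all of them core subunits of the respiratory chain and ATP synthase. The RNA of this ribosome is transcribed in the mitochondrion, but every protein of it is encoded in the nucleus, made in the cytosol and imported. The small subunit binds the messenger RNA and reads its codons, and the large subunit joins the amino acids. RGC axons depend heavily on mitochondria, and loss of mitochondrial function is a known route to RGC degeneration.

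Sequences near the start sites are given first because members of this set are known targets of the factors GABPA (nuclear respiratory factor 2), NRF1 and YY1. RefSeq promoter windows on GRCm38.p6, from 250 bases before to 50 after the start, were found for 69 members, with 75 windows in all, and 9 members had no entry. Motifs were searched on both strands as the letters CCGGAAG (GABPA), GCGCATGCG (NRF1), AAGATGGC (YY1), GGGCGG (SP1), CACGTG (E-box) and TGATGNAA (CARE, the element of the integrated stress response). The GABPA letters were in 34.7% of the member windows, against 8.86% of all 32851 windows. The YY1 letters were in 16% against 2.75%, the NRF1 letters in 9.33% against 1.75%, and the SP1 letters in 52% against 35.7%. For the large and the small subunit, the share with the GABPA letters was 31.2% and 40.7%. The E-box was in 9.33% of member windows against 7.15% of all, and the CARE letters were in 0 of 75, against 3.97% of all. A match is a description of letters and not a bound site. The shares of all windows were not limited to listed genes, so they are no comparison with other genes expressed in these samples. The windows below belong to members described further on, with the motif in capitals, and each is read on the strand of its gene:
Mrps27, GABPA on the reverse strand, chr13:99344727-99344756: tggtaggaccaCTTCCGGcggaggcgggct
Mrps27, YY1, chr13:99344789-99344818: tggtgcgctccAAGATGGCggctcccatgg
Mrpl52, GABPA on the reverse strand, chr14:54426900-54426929: ggccacgcccaCTTCCGGttcccttgctcc
Mrpl49, YY1, chr19:6057721-6057750: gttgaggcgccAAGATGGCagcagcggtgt
The letters of GABPA, YY1 and NRF1 were not in the windows of Mrps25, Mrps30 and Mrpl14.

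Many members start close to another gene. In the coordinates of the table, 33 of 78 (42.3%) had the start of a listed gene on the other strand within 1000 bases, against 20.7% of listed genes. A large subunit gene and a small subunit gene share such a start at Mrpl46 and Mrps11 on chromosome 7. Their RefSeq starts lie at 78783089 and 78783131, with 41 bases between them, chr7:78783090-78783130, and the SP1 letters are in capitals:
Mrpl46 and Mrps11, forward strand: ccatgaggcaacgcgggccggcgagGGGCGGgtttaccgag
Mean levels over the 9 libraries were 25.1 RPKM for Mrpl46 and 15.8 RPKM for Mrps11. Neither passed in any comparison of the test described below (log2 fold changes in ONC/Ctrl of 0.13 and 0.12, limma adjusted p = 0.12 and 0.311).

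The levels of the members were unequal although most of their proteins occur in equal number in a ribosome. Mean RPKM over the 9 libraries ran from 0.939 to 43.5, a 46.3-fold range, with a median of 6.57, against 4.1 for all listed genes. The median was 6.98 for the large and 6.1 for the small subunit. Mrpl49 (43.5), Mrpl2 (35.6) and Mrpl18 (27.4) were the highest of the large subunit, and Mrpl1 (0.939), Mrpl36 (0.953) and Mrpl19 (1.22) the lowest. In the small subunit, Mrps33 (27.9), Mrps25 (25) and Mrps21 (19.2) were the highest, and Mrps35 (1.62), Mrps18a (2.13) and Mrps14 (2.14) the lowest. RPKM divides by the length of the exons listed for a gene, which ran from 566 to 8631 bases among members. Across the 78 members, which are not independent replicates, the Spearman correlation with this length was -0.44 for mean RPKM and 0.39 for mean reads. Reads per member and library had a lowest value of 10, in Mrpl36, and the median over members of the mean reads was 314. Within groups the coefficient of variation had a median of 8.03% over members and 7.28% over all genes tested. For 16 members, GENCODE M21 held a transcript of another gene, not listed as overlapping the member, that matched at least 250 bases with 95% identity or more. The places of these transcripts were not checked, so some may lie at the member itself. Mrpl43 was counted through Twnk (100% over 278 bases), which starts 116 bases away on the other strand. Where a match is a copy elsewhere, reads may be divided between the copies. Mrps25, Mrps33 and Mrps36 were among the 16 members, and Mrps27, Mrps30, Mrpl14, Mrpl49 and Mrpl52 were not.

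**Figure D1:**
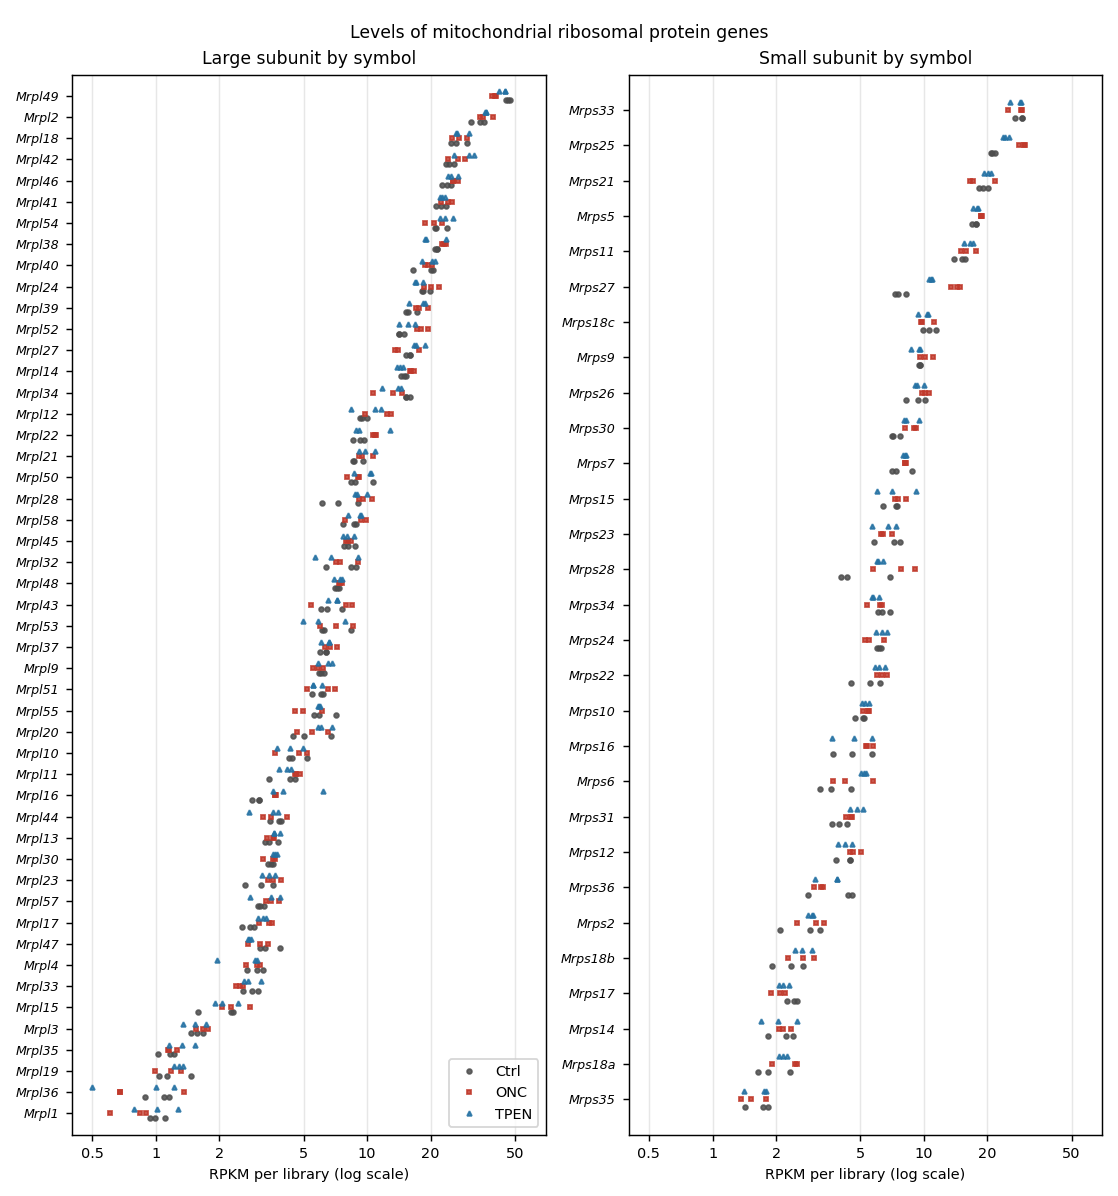
Each line is a member, the horizontal axis is RPKM on a log scale, and each point is a library (circles Ctrl, squares ONC, triangles TPEN), with large subunit names on the left and small subunit names on the right. Levels run from 0.939 to 43.5 in the mean, and the groups overlap for most members, while Mrps27 and Mrps25 have Ctrl lowest, TPEN between and ONC highest.

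Most members did not differ detectably between ONC and Ctrl. Groups were compared with limma on log2(RPKM + 0.1) over the 13566 genes that passed the filter, with p-values adjusted over all of them by the Benjamini-Hochberg method. In ONC/Ctrl, 4 members rose (Mrps27, Mrps25, Mrpl52 and Mrps30), 1 fell (Mrpl49), and 73 did not pass an adjusted p of 0.05. These 5 are 6.41% of the members, and 18.7% of all genes tested passed the same limit, 11.7% higher and 6.97% lower. Of all genes that passed, 62.7% were higher in ONC, and 46.9% after quantile normalization. With the added limit of a 1.5-fold change, which the study used for differentially expressed genes, only Mrps27 remained, while 5.34% of all genes met both limits. By subunit name, 2 of 49 large and 3 of 29 small members passed. These 3 include Mrps30, whose protein sits in the large subunit in structures, as described below. The 3 ONC libraries lay entirely above or below the 3 Ctrl libraries for 17 of 78 members (21.8%), against 36.5% of all genes. At an unadjusted p of 0.05, 13 members passed (16.7%), against 31.6% of all genes.

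The intervals show how far the other members could have moved. The 95% interval of the fold change lay within 1.5-fold in either direction for 69 of 78 members (88.5%), against 76.2% of all genes, and within 2-fold for 77. The median log2 fold change was 0.09 over the members, 0.06 over the large and 0.12 over the small subunit, and 0.02 over all genes tested. Of the 78 members, 52 had a log2 fold change above 0 (66.7%), against 53.5% of all genes. The member whose interval ran past 2-fold was Mrps28, a small subunit protein, with 4.045, 6.91 and 4.33 RPKM in Ctrl and 9.11, 7.79 and 5.73 in ONC. Its Ctrl and ONC libraries overlapped, and the log2 fold change of 0.57 (95% interval 0.11 to 1.03) did not pass (limma adjusted p = 0.0847). The next largest that missed the limit was Mrpl28 of the large subunit, at 0.40 (adjusted p = 0.0548). Without Ctrl replicate 2, in which both were highest of the Ctrl libraries, adjusted p was 0.0107 for Mrps28 and 0.00633 for Mrpl28. Leaving out their highest Ctrl library was bound to enlarge the rise. Of 19 alternative fits, Mrps28 passed in 3 (limma adjusted p up to 0.245) and Mrpl28 in 2 (up to 0.162). At the other end, Mrpl1 of the large subunit had a log2 fold change of -0.34 (95% interval -0.77 to 0.09, limma adjusted p = 0.261).

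**Figure D2:**
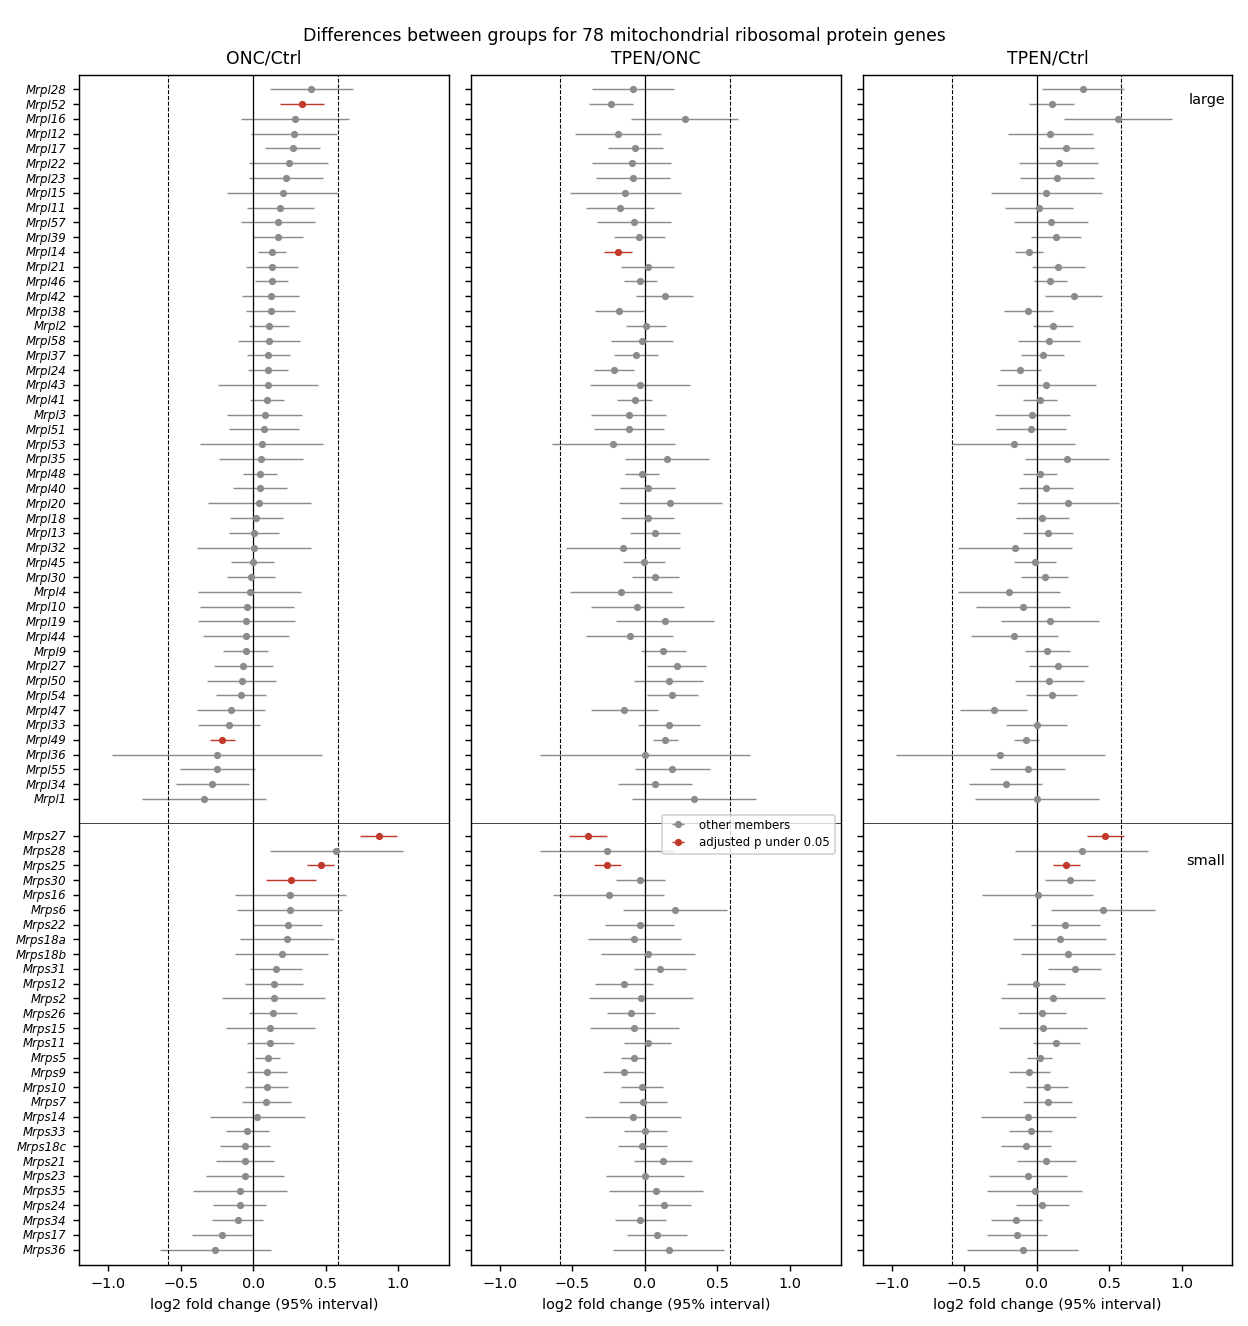
Each line is a member, ordered within its subunit by ONC/Ctrl, and the horizontal axes give the log2 fold change with its 95% interval in ONC/Ctrl, TPEN/ONC and TPEN/Ctrl. Dashed lines mark 1.5-fold, red marks an adjusted p under 0.05, and most intervals lie between the dashed lines, with Mrps27 at 0.87 in ONC/Ctrl the clear exception.

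Mrps27 encodes a small subunit protein that has no bacterial counterpart and belongs to the pentatricopeptide repeat proteins, which bind RNA. Its gene lies on chromosome 13 (99344786 to 99415561, forward strand, as the table gives it on GRCm38/mm10). It was 7.58, 7.33 and 8.27 RPKM in Ctrl, 13.4, 14.3 and 14.8 in ONC, and 10.9, 10.8 and 10.6 in TPEN. The 3 groups did not overlap, with Ctrl lowest, TPEN in the middle and ONC highest. The means were 7.73 ± 0.49, 14.2 ± 0.7 and 10.8 ± 0.166 (SD, n = 3 each), and 307 to 627 reads stood behind each value. Mrps27 rose 1.83-fold in ONC/Ctrl (log2 fold change 0.87, SE 0.0574, limma adjusted p = 5.6e-06). It fell by 0.39 on the log2 scale in TPEN/ONC (adjusted p = 0.003615) and was 0.47 higher in TPEN/Ctrl (adjusted p = 0.000513). On the scale from the Ctrl mean to the ONC mean, the TPEN libraries stood at 47% ± 2.59 (SD, n = 3).

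A gene on the opposite strand moved with Mrps27. Of the 1848 exonic bases of Mrps27, 417 (22.6%) are also exons of 6430562O15Rik, an RNA of no assigned function. 6430562O15Rik was 6.33, 6.43 and 6.88 RPKM in Ctrl, 13.3, 14.8 and 13.7 in ONC and 11.9, 11.1 and 11.3 in TPEN, again without overlap and in the same order. On the log2 scale it was 1.08 higher in ONC/Ctrl, 0.80 higher in TPEN/Ctrl and at -0.28 in TPEN/ONC (limma adjusted p = 1.45e-06, 1.96e-05 and 0.0179). The library kit marks strand, but the sources used here do not say whether strand was used in counting, and without strand reads of the shared exons cannot be assigned to either gene. The gene that starts 108 bases from Mrps27 on the other strand, Ptcd2, had a log2 fold change of 0.02 in ONC/Ctrl and 0.08 in TPEN/ONC (limma adjusted p = 0.881 and 0.608).

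Mrps25, on chromosome 6 (92169525 to 92184033, reverse strand), encodes another small subunit protein. It was 20.97, 20.84 and 21.81 RPKM in Ctrl, 29.95, 28.15 and 29.9 in ONC, and 23.66, 24.31 and 25.43 in TPEN. As for Mrps27, no libraries of different groups overlapped and TPEN lay between Ctrl and ONC. The means were 21.2 ± 0.524, 29.3 ± 1.03 and 24.5 ± 0.895 (SD, n = 3 each). Mrps25 rose 1.38-fold in ONC/Ctrl (log2 fold change 0.47, SE 0.0414, limma adjusted p = 4.34e-05), fell by 0.26 in TPEN/ONC (adjusted p = 0.00565) and was 0.21 higher in TPEN/Ctrl (adjusted p = 0.0098). The TPEN libraries stood at 40.1% ± 11 of the way from the Ctrl mean to the ONC mean. Of its 6576 exonic bases, 69.8% are shared with exons of Nr2c2 on the opposite strand, an orphan nuclear receptor. Nr2c2 itself was 3.29 ± 0.135, 3.21 ± 0.0869 and 3.23 ± 0.149 RPKM in Ctrl, ONC and TPEN, with log2 fold changes of -0.03 in ONC/Ctrl and 0.01 in TPEN/ONC (limma adjusted p = 0.8 and 0.97). GENCODE also holds a transcript, Gm42933, that matched 2070 bases of Mrps25 at 98% identity and is not in the table.

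The other members that passed in ONC/Ctrl moved less. Mrpl52 of the large subunit was 14.1, 14.2 and 15 RPKM in Ctrl, 19.5, 17.2 and 18.1 in ONC, and 14.1, 15.6 and 16.9 in TPEN. Its ONC libraries lay above all others, and it rose 1.27-fold (log2 fold change 0.34, SE 0.0686, limma adjusted p = 0.0072). It shares no exonic bases with a listed gene. Mrps30 was 7.183, 7.076 and 7.675 RPKM in Ctrl, 9.03, 9.15 and 8.16 in ONC, and 9.535, 8.01 and 8.26 in TPEN. Both injured groups lay above Ctrl and overlapped each other. Its log2 fold change of 0.26 in ONC/Ctrl passed narrowly (SE 0.0762, limma adjusted p = 0.0417), and it did not pass in 11 of 19 alternative fits, with adjusted p up to 0.127 without ONC replicate 2. Of its exonic bases, 37.8% are shared with B430218F22Rik on the opposite strand, at 0.29 in ONC/Ctrl (adjusted p = 0.135).

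Mrpl49, the member with the highest level, moved the other way. It was 45.18, 47.49 and 46.31 RPKM in Ctrl, 40.25, 40.81 and 38.81 in ONC, and 45.15, 45.09 and 41.95 in TPEN. All ONC libraries lay below all others, and 1441 to 1890 reads stood behind each value. Mrpl49 fell by 0.21 on the log2 scale in ONC/Ctrl (SE 0.0386, limma adjusted p = 0.00386), to 0.8625 of the Ctrl mean. In TPEN/ONC it was 0.14 higher, which missed the limit (adjusted p = 0.0605) and passed after quantile normalization (adjusted p = 0.0271). Of its exonic bases, 4.82% are shared with Syvn1 on the opposite strand. Its head-to-head neighbour Fau, which encodes a protein of the cytosolic ribosome, starts 137 bases away and was at 0.13 in ONC/Ctrl (adjusted p = 0.193).

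**Figure D3:**
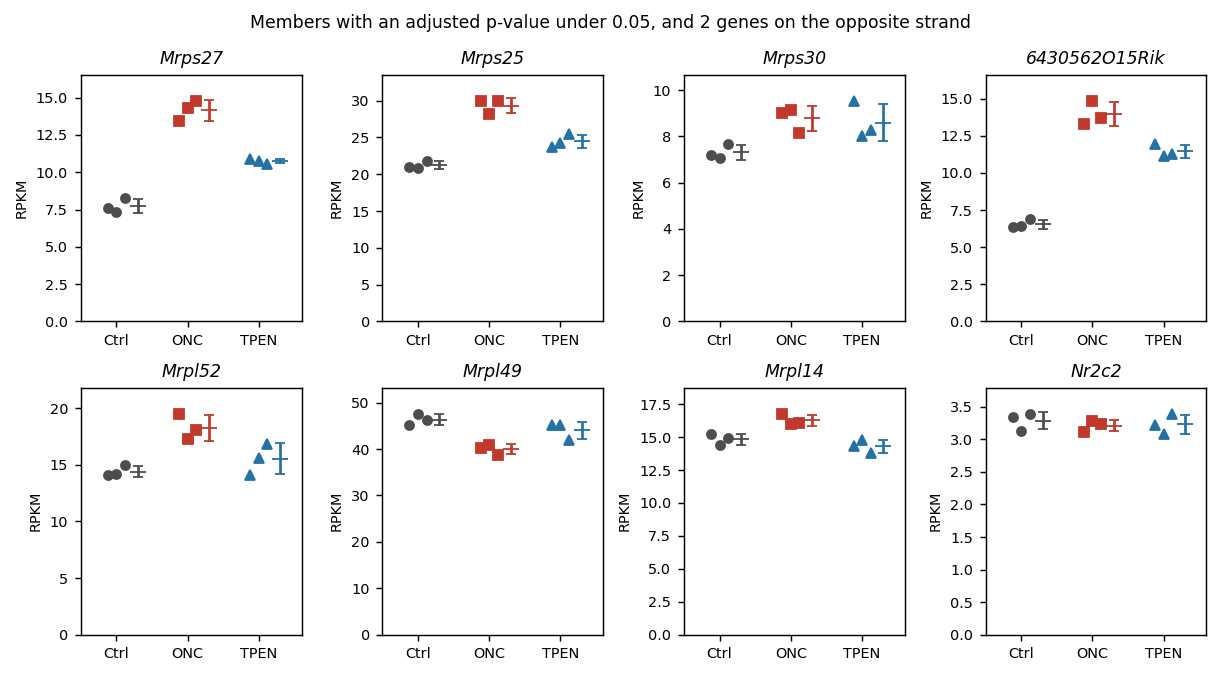
The vertical axes give RPKM from 0, points are libraries of Ctrl, ONC and TPEN, and the bars beside them are the mean and SD (n = 3). Beside the 6 members that passed in any comparison, 6430562O15Rik, which overlaps Mrps27, has the order of Mrps27, and Nr2c2, which overlaps Mrps25, is level at means of 3.21 to 3.29.

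Few members passed in TPEN/ONC. In TPEN/ONC, 0 members rose and 3 fell (Mrps27, Mrps25 and Mrpl14), which is 3.85% of the members, against 7.39% of all genes (3.24% higher and 4.14% lower), and with quantile normalization 1 rose and 2 fell. With the 1.5-fold limit added, 0 members and 2.03% of all genes passed in limma, while 10 members passed at an unadjusted p of 0.05 (12.8%), against 22% of all genes. The comparison shares its ONC libraries with ONC/Ctrl, so a member high in those libraries is high in one and low in the other. The median log2 fold change was -0.03 over the members, -0.03 over the large and -0.03 over the small subunit, and -0.01 over all genes. The 95% interval lay within 1.5-fold for 72 of 78 members (92.3%), against 80.7% of all genes, and within 2-fold for all 78. Of the 78 members, 48 had a log2 fold change below 0, and 38.5% were above 0, against 47% of all genes. The TPEN libraries lay apart from the ONC libraries for 10 members (12.8%), 2 higher and 8 lower, against 28% of all genes (1691 higher and 2111 lower).

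Mrpl14, a large subunit protein to which the assembly factor MALSU1 binds, was the third member called lower in TPEN/ONC. It was 15.2, 14.4 and 14.9 RPKM in Ctrl, 16.7, 16 and 16.1 in ONC, and 14.3, 14.8 and 13.8 in TPEN. The ONC libraries lay above all others, while Ctrl and TPEN overlapped. Of its exonic bases, 11.2% are shared with Tmem63b on the opposite strand. It fell by 0.19 on the log2 scale (SE 0.0429, limma adjusted p = 0.0298), but it did not pass in 11 of 19 alternative fits, with adjusted p up to 0.235 in voom on whole reads. Mrpl52, whose values are given above, was at -0.23 and missed the limit (limma adjusted p = 0.0756).

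The fold change of TPEN against Ctrl uses none of the ONC libraries. The spread behind its p-values and intervals was estimated from all 9 libraries, so these are not independent of ONC. With only the 6 libraries compared, 2 members and 10.5% of all genes passed. In TPEN/Ctrl, 2 members rose (Mrps27 and Mrps25), 0 fell, and 2.56% of members passed, against 13.4% of all genes (8.36% higher and 5.01% lower), and of those that passed 62.5% were higher, or 52% after quantile normalization. With the 1.5-fold limit added, 0 members and 3.91% of all genes passed in limma. At an unadjusted p of 0.05, 10 members passed (12.8%), against 27.2% of all genes. The median log2 fold change was 0.06 over the members, 0.07 over the large and 0.04 over the small subunit, and 0.01 over all genes. The interval lay within 1.5-fold for 72 of 78 members (92.3%), against 77.7% of all genes. The TPEN libraries lay apart from Ctrl for 12 members (15.4%), against 31.3% of all genes. The largest value that missed the limit was Mrpl16 of the large subunit, at 3.062, 3.085 and 2.841 RPKM in Ctrl and 4.01, 6.18 and 3.58 in TPEN. TPEN replicate 2 stood above the rest, and the log2 fold change was 0.56 (limma adjusted p = 0.0538). Without TPEN replicate 2 it was 0.33 and passed (adjusted p = 0.0439), and it passed also without TPEN replicate 3 (0.72, adjusted p = 0.0221) and in voom on whole reads (adjusted p = 0.0411).

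The large and the small subunit were compared in each library. Summed RPKM of the large subunit was 504 ± 4.12 in Ctrl, 522 ± 2.87 in ONC and 521 ± 9.42 in TPEN (SD, n = 3 each). That of the small subunit was 229 ± 6.95, 253 ± 7.63 and 242 ± 0.93. The members together took 0.164% ± 0.00184 of all reads in Ctrl, 0.177% ± 0.00172 in ONC and 0.171% ± 0.000729 in TPEN. The ratio of large to small was 2.25, 2.15 and 2.2 in the Ctrl libraries, 2.05, 2.13 and 2.01 in ONC, and 2.14, 2.2 and 2.11 in TPEN. The ONC libraries lay below the Ctrl libraries, and TPEN overlapped both. Mrps25 and Mrps27 are small subunit members that passed in every comparison. Without Mrps25 and Mrps27, the ratio was 2.52 ± 0.0698 in Ctrl, 2.49 ± 0.0757 in ONC and 2.51 ± 0.0525 in TPEN. This choice was made after their rise in ONC was seen, so it was bound to narrow the gap. With the 43 members that overlap no listed gene, the ratio was 1.73 ± 0.0587, 1.78 ± 0.0632 and 1.79 ± 0.01, in the other order. These 43 also leave out Mrps25 and Mrps27, so they are no separate check. The median of log2(RPKM + 0.1) over the large subunit less that over the small was 0.13 ± 0.117 in Ctrl, 0.22 ± 0.0673 in ONC and 0.17 ± 0.0943 in TPEN, with overlap of all 3 groups. No test was made over the members, which are not replicates.

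**Figure D4:**
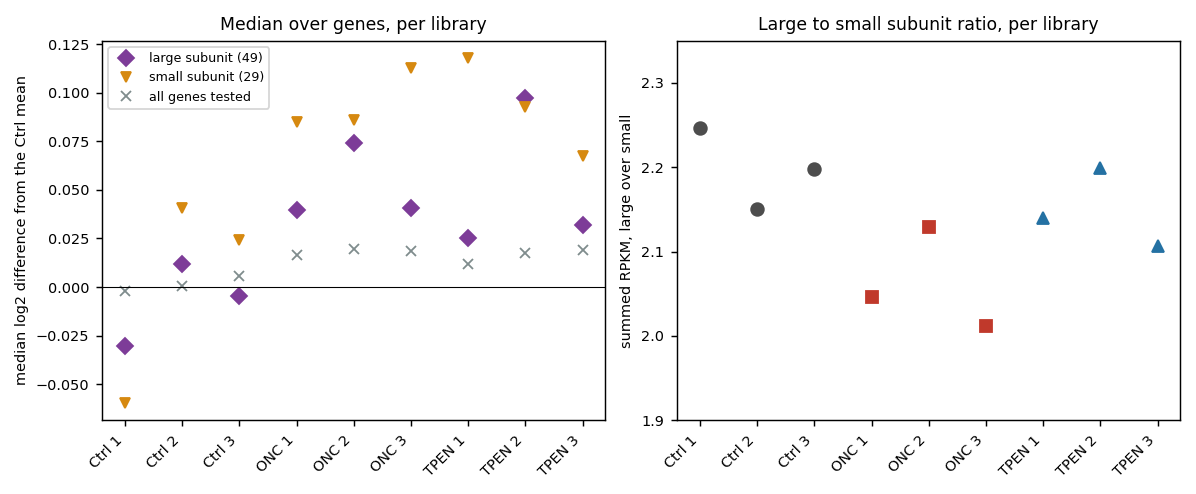
On the left, each library's median log2 difference from the Ctrl mean is shown for the 49 large subunit names, the 29 small subunit names and all genes tested, and on the right the ratio of summed RPKM, large over small, on an axis that does not start at 0. The medians of both subunits are above that of all genes in every ONC and TPEN library, the small subunit's also in Ctrl 2 and Ctrl 3 and the large subunit's in Ctrl 2, and the ratio is 2.01 to 2.13 in ONC and 2.15 to 2.25 in Ctrl.

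Some names do not match the place of the protein. In structures of the mammalian mitochondrial ribosome, the proteins of Mrps18a and Mrps30 sit in the large subunit, and that of Mrps36 belongs to the 2-oxoglutarate dehydrogenase complex. By place, 51 members are large and 26 small, and the ratio was 2.38 ± 0.0449 in Ctrl, 2.23 ± 0.0753 in ONC and 2.33 ± 0.0492 in TPEN. Mrps36 was 3.93 ± 0.956 RPKM in Ctrl, 3.2 ± 0.174 in ONC and 3.62 ± 0.478 in TPEN (SD, n = 3 each), and its groups overlapped (ONC/Ctrl log2 fold change -0.26, limma adjusted p = 0.338). Mrps18a, Mrps18b and Mrps18c are paralogs, related by descent from 1 bacterial protein, and occupy different places. Mrps18c had the highest level of the 3, with 10.61 ± 0.795, 10.21 ± 0.834 and 10.1 ± 0.573 RPKM in Ctrl, ONC and TPEN. Mrps18b had 2.31 ± 0.388, 2.65 ± 0.375 and 2.68 ± 0.251, and Mrps18a had 1.94 ± 0.355, 2.29 ± 0.33 and 2.155 ± 0.0897. The RPKM levels of Mrps18a and Mrps18b overlapped in Ctrl and ONC, while in TPEN those of Mrps18b lay higher. Mrps18c lay above both in every library, and none of the 3 passed in any comparison (ONC/Ctrl 0.23, 0.20 and -0.06, limma adjusted p = 0.308, 0.397 and 0.671).

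Members with a known special part in translation showed no detectable change. Mrpl12 sits in the stalk that recruits translation factors and has been linked to the mitochondrial RNA polymerase. It was 9.55 ± 0.418 RPKM in Ctrl, 11.7 ± 1.72 in ONC and 10.3 ± 1.7 in TPEN, with a log2 fold change of 0.28 in ONC/Ctrl (95% interval -0.02 to 0.58, limma adjusted p = 0.181). Mrpl58, which frees stalled peptides from the ribosome, was 8.39 ± 0.603, 9.06 ± 1.05 and 8.89 ± 0.694 (0.11, interval -0.11 to 0.32). Mrps12, at the decoding site, was 4.26 ± 0.373, 4.7 ± 0.286 and 4.24 ± 0.342 (0.14, interval -0.06 to 0.34). Mrps7, of the head of the small subunit, was 7.73 ± 0.914, 8.19 ± 0.0384 and 8.11 ± 0.11 (0.09, interval -0.08 to 0.26). The groups overlapped for each of these 4 genes, and each upper bound was below a 1.5-fold change.

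Other genes of mitochondrial translation were read from lists. Beside the counts below stand the shares of all genes given above, with 11.7% higher and 6.97% lower in ONC/Ctrl. In TPEN/ONC these were 3.24% and 4.14%, and in TPEN/Ctrl 8.36% and 5.01%. These lists are short and no test was made over them. Of 5 mitoribosome proteins with other symbols, 2 rose in ONC/Ctrl and 0 fell. These were Gadd45gip1 of the large subunit (log2 fold change 0.24, limma adjusted p = 0.00334) and Chchd1 of the small subunit (0.18, adjusted p = 0.0143, lost in 3 of 19 alternative fits), while Dap3, the GTP-binding protein of the small subunit, was 2.99 ± 0.154, 3.11 ± 0.128 and 3.29 ± 0.101 RPKM in Ctrl, ONC and TPEN (0.06, adjusted p = 0.649). None of the 5 passed in TPEN/ONC or TPEN/Ctrl. Ptcd3 and Aurkaip1 were at -0.03 and 0.15 in ONC/Ctrl and did not pass. The list median was 0.15 in ONC/Ctrl.

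Of 15 mitochondrial translation factors, 5 rose and 1 fell in ONC/Ctrl (list median 0.02), where 11.7% of all genes were higher and 6.97% lower, and 4 in all passed after quantile normalization. Tsfm, the exchange factor of the elongation factor Tufm, was 4.24, 4.32 and 4.13 RPKM in Ctrl and 6.68, 6.12 and 5.86 in ONC, without overlap, and had the largest rise of the list (0.54, limma adjusted p = 0.00507). Mrrf and Gfm2, which act together to split the ribosome after termination, rose by 0.48 and 0.30 (adjusted p = 0.0307 and 0.0159), and Mtif3, an initiation factor, by 0.24 (adjusted p = 0.0421). Lrpprc, which stabilizes mitochondrial messenger RNA in a complex with Slirp, fell by 0.32 (adjusted p = 0.000813), while Slirp rose by 0.12 (adjusted p = 0.0267). Of 19 alternative fits, Mtif3 lost its call in 12 (adjusted p up to 0.128), Slirp in 9, Mrrf in 5 and Gfm2 in 3, while Tsfm and Lrpprc kept theirs in all. Tufm itself was at 0.02 (adjusted p = 0.829). None of the 15 passed in TPEN/ONC, where the list median was 0.01, and in TPEN/Ctrl Mrrf, Gfm2 and Slirp were higher and Lrpprc lower (limma adjusted p = 0.0205, 0.0284, 0.0492 and 0.0123). In that comparison Slirp lost its call in 15 of 19 alternative fits, Gfm2 in 8, Mrrf in 3 and Lrpprc in 1.

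Of 22 assembly factors tested, 1 rose in ONC/Ctrl, the RNA methyltransferase Nsun4 (0.51, limma adjusted p = 0.0014), and 2 passed after quantile normalization. Nsun4 was 3.69, 3.35 and 3.21 RPKM in Ctrl, 4.835, 4.926 and 4.918 in ONC, and 5.26, 4.9 and 4.53 in TPEN, so both injured groups lay above Ctrl and overlapped each other. In TPEN/ONC, Noa1, a GTPase, fell by 0.48 (adjusted p = 0.0356), and in TPEN/Ctrl Nsun4 and Malsu1 were higher (limma adjusted p = 0.00207 and 0.0442). Noa1 lost its call in 7 of 19 alternative fits (adjusted p up to 0.121) and Malsu1 in 12 (up to 0.137), and Nsun4 kept its call in all. Of 12 genes of mitochondrial transcription and biogenesis, Pprc1 rose by 0.33 and Ppargc1a, a coactivator that drives mitochondrial biogenesis, fell by 0.24 in ONC/Ctrl (adjusted p = 0.0192 and 0.00628), and of these Pprc1 was lost in 6 of 19 alternative fits. In TPEN/ONC, Ppargc1a was 0.19 higher and Ppargc1b 0.17 lower, both narrowly (adjusted p = 0.0483 and 0.05). Each of these calls was lost in 12 of 19 alternative fits, and with the replicate block the adjusted p in limma was 0.0839 for Ppargc1a and 0.0782 for Ppargc1b. Nrf1, Gabpa and Yy1, whose motifs were searched above, were at -0.12, -0.03 and 0.19 in ONC/Ctrl and did not pass (adjusted p = 0.21, 0.742 and 0.103).

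Of 13 proteins encoded by mitochondrial DNA, which the mitochondrial ribosome makes, 2 transcripts rose in ONC/Ctrl, 4 rose in TPEN/ONC and 8 in TPEN/Ctrl, and 0 fell, where 11.7%, 3.24% and 8.36% of all genes were higher, with list medians of 0.07, 0.14 and 0.24. After quantile normalization, 0 passed in TPEN/ONC and 2 in TPEN/Ctrl, and mt-Nd4 was at -0.04 in TPEN/Ctrl. That method gives genes of the same rank the same value in every library, so it can remove differences among the most abundant genes. With it, mt-Nd4l was at 0 in TPEN/Ctrl, so losses of abundant genes under it cannot show whether their calls hold. Voom on whole reads gave 7 calls in each of ONC/Ctrl and TPEN/ONC. Of the 4 in TPEN/ONC, mt-Nd4 was lost in 11 of 19 alternative fits, mt-Nd5 in 10, mt-Co1 in 2 and mt-Cytb in 1. mt-Co1, the catalytic subunit of complex IV, was 2758, 2780 and 2685 RPKM in Ctrl, 2831, 2839 and 2832 in ONC, and 3183, 3085 and 3202 in TPEN. Its TPEN libraries lay above all others, and the log2 fold change was 0.16 in TPEN/ONC (SE 0.0245, limma adjusted p = 0.00554). mt-Nd3 of complex I was the largest riser in ONC/Ctrl, at 0.56 (adjusted p = 0.000448), with 74.7 to 90.2 RPKM in Ctrl and 118 to 129.9 in ONC. mt-Co2, mt-Co3, mt-Atp8 and mt-Atp6 were listed at group means of 5.47 to 38.3 RPKM, against 2072 RPKM or more for the other subunits except mt-Nd3, and how reads matching several places were counted is not given in the sources used here. The ribosomal RNAs mt-Rnr1 and mt-Rnr2, in libraries made from messenger RNA, did not pass in any comparison (0.15 and -0.01 in ONC/Ctrl, -0.18 and -0.09 in TPEN/ONC), but 2 passed in TPEN/ONC after trends with GC content and length were removed. Of 10 mitochondrial proteases and chaperones, Afg3l2, a protease that matures a large subunit protein, rose by 0.33 in ONC/Ctrl (adjusted p = 0.0026), and Lonp1 and Spg7 fell by 0.19 and 0.15 in TPEN/ONC (adjusted p = 0.0277 and 0.042), with 0 called after quantile normalization and losses in 8 and 12 of 19 alternative fits.

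**Figure D5:**
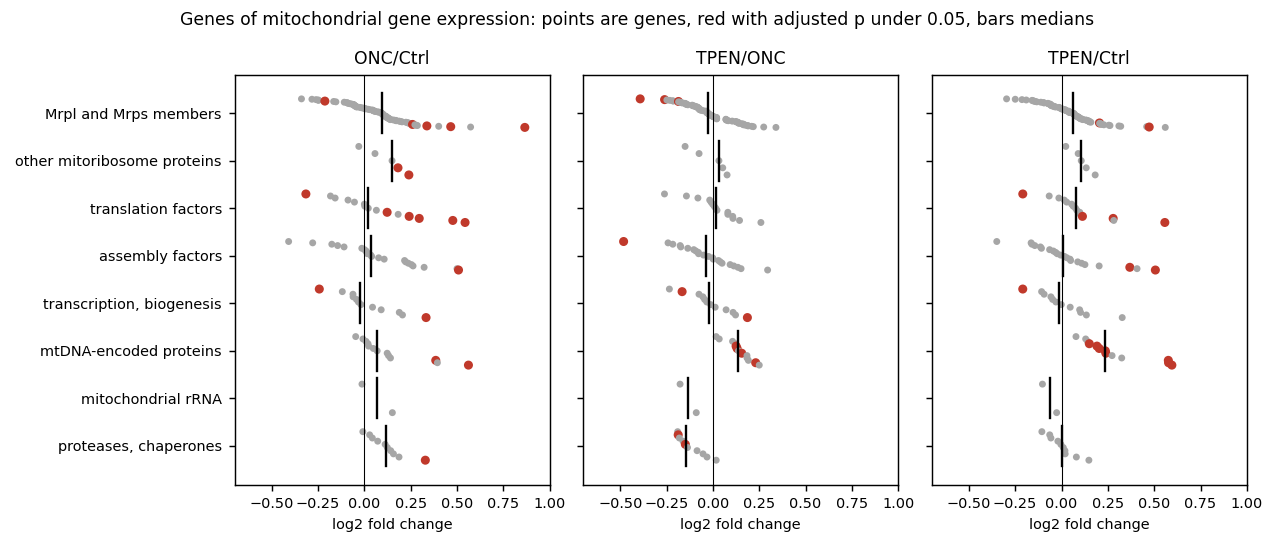
Points are the log2 fold changes of single genes in ONC/Ctrl, TPEN/ONC and TPEN/Ctrl, grouped by list, red where the adjusted p was under 0.05, and black bars are list medians. The members sit around 0 with medians of 0.09, -0.03 and 0.06, and the proteins encoded by mitochondrial DNA lie to the right in TPEN/ONC and TPEN/Ctrl with medians of 0.14 and 0.24.

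Markers of other cells moved between the same groups. Of 11 microglia and macrophage markers, 10 were listed, none at 0 in any library, and their summed RPKM was 4.44 to 5.35 in Ctrl, 58.3 to 61.4 in ONC and 25.7 to 26.6 in TPEN. This is the order seen for Mrps27 and Mrps25, and 9 of 9 tested rose in ONC/Ctrl. RGC markers summed to 329 to 339, 345 to 365 and 265 to 278 RPKM in Ctrl, ONC and TPEN, with 2 of 5 tested higher in ONC/Ctrl. Neurofilament genes carried this sum, with 254 to 259.8 RPKM in Ctrl for Nefl alone. Rbpms was 0.495 to 0.688 RPKM in Ctrl and 0.357 to 0.444 in ONC, Pou4f1 was 0.405 to 0.678 and 0.0746 to 0.307, and Isl1 was 1.85 to 2.33 and 1.52 to 1.78. These 3 were lower in every ONC library than in every Ctrl library, while Slc17a6 was higher in every ONC library, at 0.347 to 0.484 against 0.184 to 0.321. Of all genes tested, 36.5% lay apart in 1 direction or the other. Rbpms, Pou4f1 and Slc17a6 were below the filter and not tested. In TPEN/ONC, 1 of the 5 RGC markers tested was called higher and 3 lower (list median -0.34), against 3.24% and 4.14% of all genes. Summed cone markers were 128 to 135, 111 to 119 and 199 to 202 RPKM, and those of Müller glia 482 to 501 and 511 to 523 in Ctrl and ONC and at most 404 in TPEN. The Müller glia sum does not stand for each of its 6 markers. In ONC/Ctrl, 1 was called higher and 3 lower (list median -0.12), against 11.7% and 6.97% of all genes. In TPEN/ONC, 2 were called higher and 3 lower (list median -0.08), against 3.24% and 4.14%. Rod markers summed to 19100 to 19900, 16800 to 17000 and 18000 to 18100, bipolar markers to 78.3 to 81.2, 71.8 to 73.2 and 75.2 to 78.9, and amacrine markers to 31.6 to 33.6, 27 to 28.2 and 31.5 to 33.6. The part of these cells in the values of Mrps27, Mrps25 and the other members was not tested.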

How the data were processed

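The authors sorted cells as RGCs, made stranded messenger RNA libraries with molecular identifiers, trimmed reads with Trimmomatic 0.36 (per the submitters' processing notes), mapped them with STAR 2.5.3a to GRCm38/mm10 and compared groups with edgeR 3.12.1. They deposited RPKM values per gene and library, normalized by the authors for exon length and library size, with 9 columns of their own fold changes and p-values, which were not used. The counting program, the annotation, and the use of strand and identifiers in counting are not given in the sources used here. RPKM multiplied by length gave whole reads for 100% of values (tolerance 0.01 reads), which yielded the depth of each library. A value of 0 allows up to 3 reads (0.13 to 0.15 RPM), for counting error only. No library repeated another of its group: every pair differed beyond sampling noise (mean chi-square per gene of 2.3 to 5.26), so all 9 libraries were kept.

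Groups were compared with limma 3.58.1 (R 4.3.3, trend of variance on mean) on log2(RPKM + 0.1), keeping genes whose mean reached 0.5 RPKM, with 1 coefficient per group and Benjamini-Hochberg adjustment over 13566 genes. Log2 fold changes are on this scale, which makes changes of low genes smaller. Alternatives were quantile normalization, median-ratio scaling, a pseudocount of 1 RPKM, no filter, a filter at 1 RPKM, only the 6 libraries compared, a replicate block, voom on the whole reads, removal of trends with GC content and length, and leaving out each library. Whole reads served voom because the deposited values are not counts. Near copies were searched with blastn 2.17.0 in GENCODE M21 transcripts. Members, gene lists and motifs were chosen with earlier results of these data known. Genes were named if they passed in a comparison, were among the 3 highest or lowest of a subunit, or were fixed by role (Mrps18a to Mrps18c, Mrps30, Mrps36, Mrpl12, Mrpl58, Mrps12, Mrps7, Dap3 and the other mitoribosome proteins), and list members where the list is described. Mrps28, Mrpl28, Mrpl1, Mrpl16, Mrpl46, Mrps11 and the overlapping or neighbouring genes were named after their values were seen.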

Additional observations from a re-analysis of the deposited data

Results flagged for a closer look

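The name left out of the members, Mrpl23-ps1, had signal in data outside the comparisons of members, which is what marks it. Its mean over the 9 libraries was 6.11 RPKM, with 3.54, 6.42 and 6.36 in Ctrl, 4.2, 6.68 and 7.21 in ONC, and 8.89, 5.12 and 6.57 in TPEN. The groups overlapped. Mrpl23, the gene it is named for, was at 3.4 RPKM in the mean. The listed lengths differ, at 580 bases for Mrpl23-ps1 and 4883 for Mrpl23. Reads per library were 46 to 103 for Mrpl23-ps1 and 259 to 440 for Mrpl23. Groups of 3 libraries are too small for the check of single libraries that stand apart.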

How the results depend on the processing

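Mrps27 and Mrps25 kept their direction and their call in all 3 comparisons under all 19 alternatives, and Mrpl52 and Mrpl49 kept theirs in ONC/Ctrl. For the named members, Mrps30 in ONC/Ctrl and Mrpl14 in TPEN/ONC were each lost in 11 of 19. At an unadjusted p of 0.05, 13, 10 and 10 members passed in ONC/Ctrl, TPEN/ONC and TPEN/Ctrl, and voom on whole reads gave 1 member past 1.5-fold in TPEN/Ctrl. Same-numbered libraries did not deviate together across genes, with correlations from -0.0623 to 0.0268. This cannot settle whether the numbers pair the libraries, since what the numbers stand for is not stated in the sources used here. With the replicate block, 4, 2 and 3 members passed. After quantile normalization the median log2 fold change in ONC/Ctrl was 0.05 over all members, 0.019 over the large and 0.07 over the small subunit, and in TPEN/Ctrl it was 0.023 over all and 0.025 over the large. With GC content and length trends removed, with or without the replicate block, the ONC/Ctrl median was 0.061. For members that overlap no listed gene, medians were 0.101 for the large subunit in ONC/Ctrl, -0.062 for the large in TPEN/ONC and 0 for the small in TPEN/Ctrl. The large to small ratio in Ctrl, ONC and TPEN was 2.38, 2.23 and 2.33 by place in structures, 1.73, 1.78 and 1.79 for members without overlap, and 2.52, 2.49 and 2.51 without Mrps25 and Mrps27, the last chosen after seeing the data. These follow from which members enter, and the cause of the other shifts was not tested. mt-Nd4 turned to -0.04 in TPEN/Ctrl after quantile normalization, which sets the values of the most abundant genes by rank alone.

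Leaving out each library gave 4 to 7, 2 to 4 and 2 to 4 members called in ONC/Ctrl, TPEN/ONC and TPEN/Ctrl, of which 1 to 2, 0 to 0 and 0 to 1 were past 1.5-fold. Medians ran from 0.062 to 0.104 in ONC/Ctrl (large 0.053 to 0.086, small 0.067 to 0.129), from -0.029 to -0.018 in TPEN/ONC (large -0.049 to 0.015, small -0.049 to -0.01) and from 0.042 to 0.064 in TPEN/Ctrl (large 0.033 to 0.065, small 0.028 to 0.077). The 4 calls in TPEN/Ctrl came without Ctrl replicate 2 and without TPEN replicate 3. The large subunit median in TPEN/ONC was above 0 without TPEN replicate 1. The ratio ran from 2.174 to 2.223 in Ctrl, 2.029 to 2.088 in ONC and 2.123 to 2.17 in TPEN. With 3 libraries a group, members with few reads, such as Mrpl36, have wide intervals.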
